A study of Mus musculus with 6 samples.

Results

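The genes described here encode the laminin chains, the nidogens, the type IV collagen chains and perlecan, the main parts of the basement membrane. They were chosen by symbol: 10 genes (Lama4, Lama5, Lamb1, Lamb2, Lamc1, Nid1, Nid2, Col4a1, Col4a2 and Hspg2) out of 22180 genes that had a probe set with that gene as its only symbol. All 10 had such a probe set. Nid1 had a pair of them, of which the one with the higher mean was used, and the other genes had 1 each.

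Expression was measured in blood endothelial cells of the intestine on 6 Affymetrix Mouse Gene 2.0 ST arrays. The knockout group (KO) held 3 arrays from adult Apcfl//fl; Villin-CreERT2 mice, and the control group held 3 arrays from Apcfl//fl mice, which the labels call WT and for which they name no Cre. Mice of both groups had a mixed C57BL/6 x 129 background and received tamoxifen on 5 consecutive days, with the intestine taken on day 6. The villin promoter drives Cre in the intestinal epithelium, so that Apc is deleted there and not in the endothelium that was sorted. Cells were single, live, CD31+ and negative for CD45, EpCAM and gp38. The labels call the arrays biological replicates and do not say how many mice each one holds.

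A basement membrane is a thin sheet of matrix on which endothelial and epithelial cells rest. Laminins are trimers of an alpha, a beta and a gamma chain that form a network at the cell surface, and type IV collagen forms a covalently crosslinked network beneath it. Nidogens bind both laminin and type IV collagen, and perlecan, a heparan sulfate proteoglycan, also joins the networks and holds growth factors. In vessels the sheet is made by endothelial cells together with the mural cells (pericytes and smooth muscle) around them, and sprouting vessels lay down a new one.

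The promoter sequences of 4 genes are shown because Nid1 and Lamb1 had the smallest p-values of the 10 genes, Lamb2 is the only gene of the 10 with a negative change, and Col4a1 shares its promoter with Col4a2. RefSeq promoter sequences (GRCm38.p6, 250 bases before to 50 bases after the transcription start, 5′ to 3′ on the gene's strand) were at hand for 7 of the 10 genes, and Lama4, Lamc1 and Nid2 are only named. Capitals mark the GC box GGGCGG and the CCAAT box CCAAT on either strand.
Nid1, chr13:13437352-13437651, plus strand: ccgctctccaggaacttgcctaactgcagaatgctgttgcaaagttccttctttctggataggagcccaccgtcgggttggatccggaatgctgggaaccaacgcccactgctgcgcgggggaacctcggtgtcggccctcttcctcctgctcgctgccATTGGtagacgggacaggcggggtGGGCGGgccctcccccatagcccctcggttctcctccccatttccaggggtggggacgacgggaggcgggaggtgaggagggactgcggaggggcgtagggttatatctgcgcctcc
Lamb1, chr12:31265043-31265342, plus strand: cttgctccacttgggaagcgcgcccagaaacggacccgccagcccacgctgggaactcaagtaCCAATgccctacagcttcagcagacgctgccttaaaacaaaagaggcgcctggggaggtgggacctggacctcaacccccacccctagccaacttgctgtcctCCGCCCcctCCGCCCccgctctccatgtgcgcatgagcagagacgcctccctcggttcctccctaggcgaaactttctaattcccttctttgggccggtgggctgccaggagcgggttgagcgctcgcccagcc
Lamb2, chr9:108479612-108479911, plus strand: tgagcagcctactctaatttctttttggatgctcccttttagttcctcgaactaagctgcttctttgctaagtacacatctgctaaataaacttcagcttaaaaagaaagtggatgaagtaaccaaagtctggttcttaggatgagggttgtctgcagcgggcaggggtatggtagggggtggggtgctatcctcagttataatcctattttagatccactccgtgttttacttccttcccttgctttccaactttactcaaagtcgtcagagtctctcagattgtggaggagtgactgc
Col4a1, chr8:11312777-11313076, minus strand: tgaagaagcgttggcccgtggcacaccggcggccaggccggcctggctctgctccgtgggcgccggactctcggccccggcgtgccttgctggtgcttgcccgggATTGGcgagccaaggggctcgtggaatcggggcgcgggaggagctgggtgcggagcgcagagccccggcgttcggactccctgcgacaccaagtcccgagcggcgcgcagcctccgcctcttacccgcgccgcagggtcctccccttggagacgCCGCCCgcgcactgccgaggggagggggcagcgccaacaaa
The Col4a1 and Col4a2 genes lie head to head. The Col4a1 window and the Col4a2 window (chr8:11312555-11312854, plus strand) overlap by 78 bases, and the transcription starts, at base 11312826 for Col4a1 and base 11312805 for Col4a2, lie within 22 bases that both transcripts include. A GC box was found in the windows of 6 of the 7 genes, against 35.7% of 32851 promoter windows of the same length. The GC box of Col4a1 lies in the bases shared with the Col4a2 window, so the same site counts for both genes. A CCAAT box was found in 4 of the 7 (Lamb1, Nid1, Col4a1 and Col4a2), against 37.4% of all windows. The Lamb2 window held neither. None of the 7 windows held TATAAA, which 13.6% of all windows hold, or the AP-1 site TGANTCA, which 7.81% hold. Both strands were searched, and no GC box overlapped a CCAAT box or another GC box in these windows. These are matches of letters and say nothing of binding.

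Of the 10 basement membrane genes, 5 rose in the sorted endothelial samples of knockout mice. Nid1, Nid2, Lamb1, Col4a1 and Col4a2 were 1.45-fold to 1.85-fold higher, and none of the 10 fell (limma, adjusted p under 0.05). That is 5 of 10 genes, where 1.13% of the 15287 genes above background rose, 1.48% fell and 2.61% changed in either direction. The share was larger among brighter genes. Of the 8073 genes over a stricter background of 6.16, 5.98% changed in either direction (229 rose and 254 fell). The same 5 of the 10 were called there. The 10 genes were chosen with earlier results of these data known, so their count beside these shares is a description and not a test. The change was positive for 9 of the 10 genes, and for 46.7% of all genes. The median change of the 10 was 0.40 on the log2 scale, against -0.017 over all genes. In 9 of the 10 the values of the groups did not overlap, a separation seen in 22.1% of all genes. All 10 genes lay above the background level of 4.12 on every array, so no gene was lost to the filter on low values. The genes keep to their own scale in what follows, since the brightness of different probe sets cannot be compared.

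**Figure D1:**
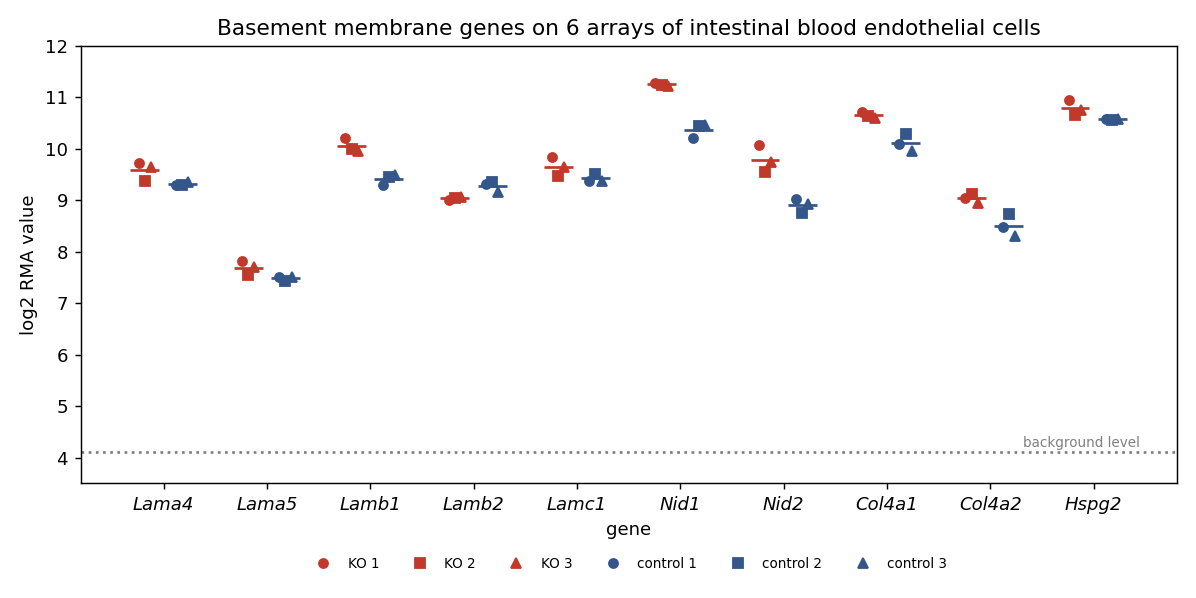
Log2 RMA values of the 10 genes on each array, with the 3 knockout arrays (red) left of the 3 control arrays (blue) and a line at each group mean; the dotted line is the background level of 4.12. Nid1, Nid2, Lamb1, Col4a1 and Col4a2 sit higher on all 3 knockout arrays than on any control array, Lamb2 sits lower on all 3, and Lamc1 is the gene whose groups overlap.

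The nidogens showed the largest changes. Nid1 encodes nidogen-1, which bridges the laminin gamma1 chain and type IV collagen. It had log2 values of 11.28, 11.25 and 11.23 on the knockout arrays, against 10.22, 10.44 and 10.46 on the control arrays. The knockout arrays lay within 0.052 of each other and well above every control array. Nid1 averaged 11.25 ± 0.026 in the knockout and 10.38 ± 0.13 in the control (SD, n = 3 each), a rise of 0.88 ± 0.073 (SE), or 1.83-fold, with an adjusted p of 0.00136 by limma. Of all genes tested it had the 9th smallest p. The other Nid1 probe set, which was not used to choose or test the gene, gave 9.78, 9.91 and 9.76 in the knockout, against 8.81, 8.86 and 8.77 in the control. The groups were apart there as well, with a change of 1.00 ± 0.073, and its adjusted p was 0.0157 when limma was fitted over all 25691 probe sets above background.

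Nid2 encodes nidogen-2, a second protein of the same family with overlapping binding partners. Its log2 values were 10.08, 9.55 and 9.75 in the knockout, against 9.02, 8.75 and 8.94 in the control. Knockout 1 was the highest array, and the lowest knockout array was still above the highest control. The rise was 0.89 ± 0.13 (SE), or 1.85-fold (adjusted p = 0.0137 by limma). The spread among knockout arrays was wider for Nid2 (SD 0.27) than for Nid1 (SD 0.026). Leaving out knockout 3 ended the Nid2 call (change 0.91, adjusted p = 0.0604), as did leaving out control 3 (change 0.91, adjusted p = 0.0552).

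The estimated changes of the laminin beta chain genes had opposite signs. Lamb1 encodes the beta1 chain, and its log2 values were 10.20, 9.99 and 9.96 in the knockout, against 9.30, 9.45 and 9.50 in the control. Every knockout array was above every control array. Lamb1 rose by 0.64 ± 0.091 (SE), or 1.56-fold (adjusted p = 0.0113 by limma), and passed with each array left out in turn, with a highest adjusted p of 0.0439. Lamb2 encodes the beta2 chain, which takes the place of beta1 in other laminin trimers. Its log2 values were 9.00, 9.05 and 9.06 in the knockout, against 9.32, 9.36 and 9.16 in the control, so that all knockout arrays lay below all control arrays. The Lamb2 difference was -0.24 ± 0.082 (95% interval -0.43 to -0.056) and did not pass the adjustment (unadjusted p = 0.0164, adjusted p = 0.179 by limma).

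The difference between the chains was tested itself, as the value of Lamb1 minus that of Lamb2 within each array. Set to its control mean, it was 1.07, 0.81 and 0.77 on the knockout arrays, against -0.16, -0.044 and 0.21 on the control arrays. The groups did not overlap, and the difference of changes was 0.88 ± 0.14 (SE), which is a 1.84-fold shift of Lamb1 relative to Lamb2. An exact permutation test over the 6 arrays, two-sided, gave p = 0.1, the smallest that 3 against 3 arrays allow, and 0.4 after adjustment over the 4 pairs compared. The other pairs did not separate. For Lama4 minus Lama5 the difference of changes was 0.060 ± 0.041 (exact permutation p = 0.3), for Nid1 minus Nid2 it was -0.015 ± 0.20 (exact permutation p = 0.9), and for Col4a1 minus Col4a2 it was 0.0058 ± 0.057 (exact permutation p = 0.9). With adjustment over the 4 pairs these p-values were 0.6, 0.9 and 0.9.

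**Figure D2:**
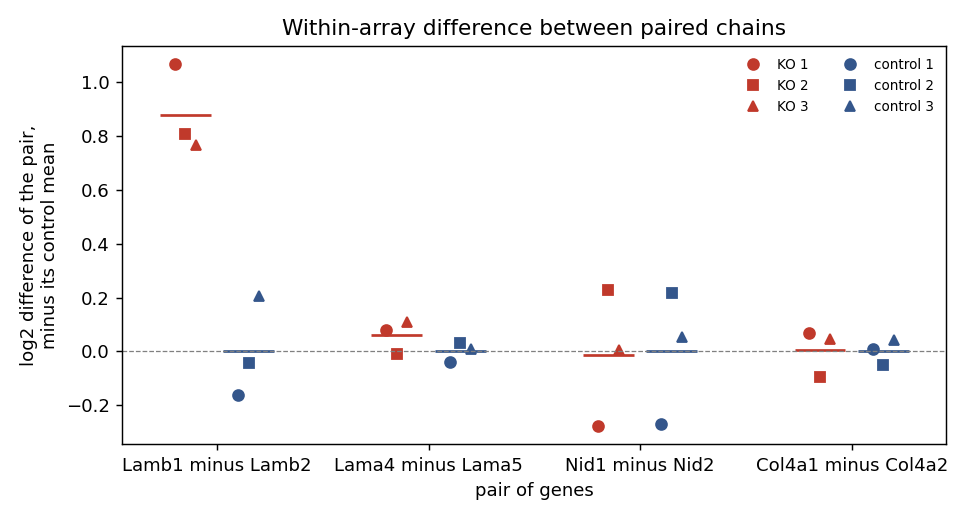
Log2 difference between paired genes within each array, minus the control mean of that difference, for the 3 knockout arrays (red, left) and the 3 control arrays (blue, right), with a line at each group mean. The Lamb1 minus Lamb2 difference is 0.77 to 1.07 in the knockout and -0.16 to 0.21 in the control, and the groups of the other 3 pairs overlap.

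The alpha chains and the gamma chain had smaller differences that did not pass. Lama4 encodes the alpha4 chain, which marks endothelial laminins, and it had log2 values of 9.73, 9.37 and 9.65 in the knockout, against 9.31, 9.30 and 9.36 in the control. Knockout 2 lay just above the highest control array. The difference was 0.26 ± 0.099 (adjusted p = 0.227 by limma). Lama5 encodes the alpha5 chain, found in the laminin of mature endothelium and of epithelium. It had log2 values of 7.82, 7.54 and 7.70 in the knockout, against 7.51, 7.43 and 7.52 in the control. Here too knockout 2 was only slightly above the controls, and the difference was 0.20 ± 0.11 (adjusted p = 0.414 by limma). Lamc1 encodes the gamma1 chain, shared by the laminins of the other 4 laminin genes described here. Its log2 values were 9.84, 9.48 and 9.65 in the knockout, against 9.38, 9.52 and 9.38 in the control, so knockout 2 lay below control 2. The difference was 0.23 ± 0.10 (adjusted p = 0.293 by limma).

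Col4a1 and Col4a2 encode the alpha1 and alpha2 chains, which assemble into the common trimer of type IV collagen, and both rose. Col4a1 had log2 values of 10.71, 10.63 and 10.60 in the knockout, against 10.09, 10.28 and 9.96 in the control. Col4a2 had log2 values of 9.04, 9.12 and 8.95 in the knockout, against 8.48, 8.73 and 8.31 in the control. For both genes control 2 was the highest control array and control 3 the lowest, and every knockout array was above all controls. Col4a1 rose by 0.54 ± 0.087 (SE), or 1.45-fold (adjusted p = 0.0178 by limma). Col4a2 rose by 0.53 ± 0.12, or 1.45-fold, with an adjusted p of 0.04997 by limma, at the edge of the threshold. The Col4a1 call was lost without knockout 1, 2 or 3 or control 3 (adjusted p up to 0.0634). The Col4a2 call was lost with any array left out except control 2 (adjusted p up to 0.140).

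Hspg2 encodes perlecan. Its log2 values were 10.95, 10.66 and 10.76 in the knockout, against 10.59, 10.57 and 10.58 in the control. The control arrays lay within 0.021 of each other, and all knockout arrays were above them. The difference was 0.21 ± 0.077 (95% interval 0.038 to 0.38) and did not pass the adjustment (adjusted p = 0.205 by limma).

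**Figure D3:**
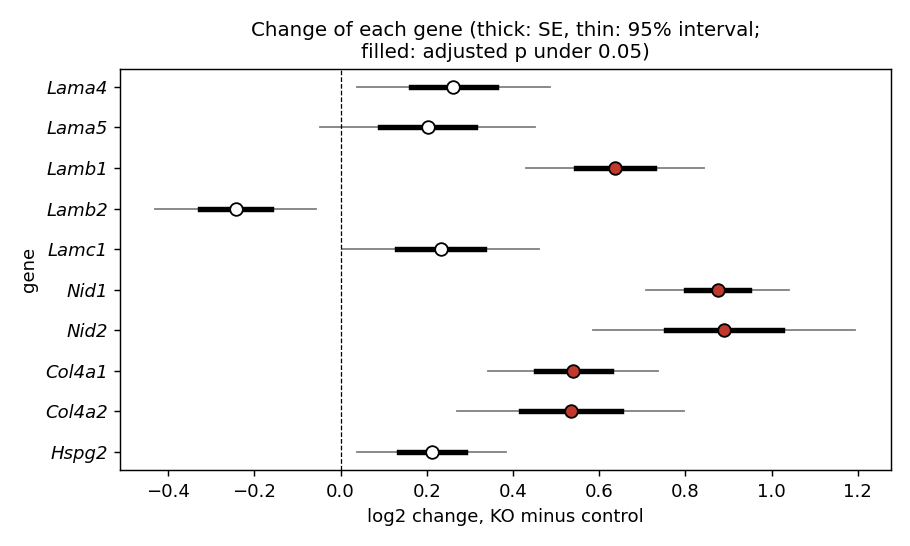
Log2 change (KO minus control) of each of the 10 genes as estimated by limma, with thick bars for the standard error and thin bars for the 95% interval; filled points have an adjusted p under 0.05. The 5 filled points run from 0.53 for Col4a2 to 0.89 for Nid2, and Lamb2, at -0.24, is the single gene left of 0.

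The arrays of the knockout group were not equal. Averaged over the 10 genes, knockout 1 was 0.53, knockout 2 was 0.33 and knockout 3 was 0.39 above the control mean, while the control arrays lay between -0.025 and 0.043. Knockout 2 had the lowest value of the knockout group for Lama4, Lama5, Lamc1, Nid2 and Hspg2, but not for Nid1, Lamb1, Lamb2, Col4a1 or Col4a2. In each knockout array 9 of the 10 genes lay above their control mean, with Lamb2 the exception.

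The other chains of the same families were mostly near background. Of 10 further laminin and type IV collagen chain genes, 8 were above background, 1 rose and 1 fell, with a median change of -0.078. Lama3, which encodes the alpha3 chain, had log2 values of 9.49, 9.41 and 9.43 in the knockout, against 8.89, 8.96 and 8.88 in the control, a rise of 0.54 ± 0.074 (adjusted p = 0.0104 by limma). Lamc3, which encodes the gamma3 chain, had 5.01, 5.08 and 5.27 in the knockout, against 5.94, 6.09 and 6.29 in the control, a change of -0.99 ± 0.15 (adjusted p = 0.0146 by limma). The groups did not overlap for either gene. Col4a3, Col4a4, Col4a5 and Col4a6, the chains of the specialised collagen IV networks, had means of 4.39 to 5.11 in the knockout and 4.47 to 5.09 in the control, and none passed.

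Other basement membrane components had 1 call. Of 24 such genes, 21 were above background, 1 rose and none fell, with a median change of 0.012. The change was positive for 11 and negative for 10. The 1 that rose was Vwa1, which encodes a perlecan-binding matrix protein (8.61 in the knockout and 8.07 in the control, 0.55 ± 0.093, adjusted p = 0.0217 by limma). Egfl7, a secreted endothelial matrix protein, had the next smallest p (0.35 ± 0.084, adjusted p = 0.0685 by limma). Sparc, a collagen-binding matrix protein, averaged 11.38 in the knockout and 11.24 in the control (adjusted p = 0.239 by limma), and Sparc was named after its values were seen. Col8a1, also named after its values were seen, had the most negative change of the list (-0.69 ± 0.19, adjusted p = 0.106 by limma).

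Genes for the folding, secretion and crosslinking of collagen had no call. Of 31 listed genes 26 were above background, 0 passed limma at the adjusted threshold, and the median change was 0.096. An unadjusted limma p under 0.05 was reached by 1 of the 26, and by 2512 of all 15287 genes. The closest was Creb3l2, a transcription factor of the secretory pathway (8.21 in the knockout and 7.68 in the control, 0.53 ± 0.12, adjusted p = 0.052 by limma). Colgalt1, a collagen galactosyltransferase, was next (0.26 ± 0.12, adjusted p = 0.321 by limma).

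Among 21 receptor genes for laminin and type IV collagen, all above background, 1 rose and 1 fell, with a median change of -0.013. Itgb3, the integrin beta3 subunit, rose by 0.86 ± 0.14 (8.05 in the knockout and 7.19 in the control, adjusted p = 0.0193 by limma). Bcam, a receptor for the laminin alpha5 chain, fell, with 10.26 in the knockout and 10.61 in the control (-0.35 ± 0.063, adjusted p = 0.0272 by limma). The list of matrix proteases and their inhibitors had more calls, with 5 of 21 genes above background higher, none lower and a median change of 0.21. They were the proteases Adamts9 (1.67 ± 0.11), Adamts4 (1.17 ± 0.16) and Adamts1 (0.64 ± 0.13), the urokinase receptor Plaur (1.55 ± 0.12) and the inhibitor Timp1 (1.66 ± 0.21), with adjusted p-values from 0.000346 to 0.0365 by limma. Of the 21, 17 had a positive change and 4 a negative one. The lowest was that of Timp4, also an inhibitor (-0.65 ± 0.16, adjusted p = 0.0709 by limma). Over all genes above background, 1.13% rose and 1.48% fell.

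Cell types that also make basement membrane were followed by marker lists. Of 15 mural markers, all above background, 7 fell, none rose and 14 had a negative change, with a median of -0.76. The mean log2 value of the list was 7.56 to 7.99 on the knockout arrays and 8.31 to 8.67 on the control arrays. Rgs5, Acta2 and Myl9 had means of 10.98, 10.19 and 10.07 in the knockout and 11.68, 11.01 and 10.93 in the control, and Des and Tagln had the smallest p. All 5 fell by limma (adjusted p from 0.00451 to 0.029). The mural list thus had the sign of Lamb2 and the opposite sign to the 5 genes that rose. Its part in the results for the 10 genes was not tested. In sorted bulk samples, fewer cells of a type and less RNA per cell cannot be told apart.

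Of 14 fibroblast markers above background out of 15, 1 fell and none rose, with a median change of -0.18 and list means of 6.00 to 6.27 in the knockout and 6.20 to 6.61 in the control. Col1a2 was the marker that fell (7.44 in the knockout and 8.27 in the control, adjusted p = 0.0433 by limma), and Lum was not above background. Dcn, Vcam1 and Bmp4 did not pass, with adjusted p-values from 0.171 to 0.916 by limma. Of the 14 fibroblast markers, 10 had a negative change and 4 a positive one, of up to 0.48. Of 15 epithelial markers 8 fell and none rose. Epcam and Cdh17 lay at or under the background on every knockout array, so that their differences are bounds, and with values under the background raised to it the median difference of the list was -1.82. The list means were 5.34 to 5.71 in the knockout, against 6.59 in control 1 and up to 8.45 in controls 2 and 3. Fabp1, Rbp2 and Fabp2, proteins of fat and vitamin A uptake, had the smallest p (differences of -3.57, -3.32 and -3.29). The sort kept EpCAM-negative cells, a gate that takes out epithelial cells bearing EpCAM. Epithelium makes laminin chains too, and the part of epithelial RNA in the results for the 10 genes was not tested. With control 1 as the lone control, which leaves out the controls with the higher epithelial list means and assumes that control 1 varies as the knockout arrays do, the changes were 1.03 for Nid1, 0.78 for Nid2, 0.76 for Lamb1, and 0.56 for both Col4a1 and Col4a2, and Nid1 was the gene that passed (adjusted p = 0.0197 by limma), among 52 of all genes. Control 1 was also the control with the highest mural list mean (8.67, against 8.31 and 8.45 in controls 2 and 3) and fibroblast list mean (6.61, against 6.20 and 6.31), so this choice widens the difference from the knockout in those lists.

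The sorted cells carried endothelial markers. Of 12, 1 rose and none fell, with a median of 0.032, but in 6 of the 12 the groups did not overlap (22.1% of all genes). An unadjusted limma p under 0.05 was reached by 5 of the 12, and by 2512 of all 15287 genes in either direction. These 5 (Egfl7, Kdr, Eng, Esam and Robo4) were higher in the knockout, by 0.35, 0.28, 0.26, 0.21 and 0.20. These differences are of the size of those of Lama4, Lama5, Lamc1 and Hspg2. The list had means of 10.83 to 10.87 in the knockout and 10.74 to 10.78 in the control. Eng was the one that rose (0.26 ± 0.044, adjusted p = 0.021 by limma), while Kdr was at 0.28 ± 0.064 (adjusted p = 0.0549), and Cdh5 and Emcn were at -0.052 and -0.087. Scaled to the mean of these markers on each array, the median change of all genes was -0.11 and the changes of the 5 genes were 0.44 to 0.80, with Col4a2 no longer passing (adjusted p = 0.0778). Of 6 lymphatic markers above background out of 7, Lyve1 (7.51 in the knockout and 6.38 in the control, adjusted p = 0.0406) and Flt4 (8.77 in the knockout and 8.12 in the control, adjusted p = 0.0104) rose. Pdpn, which encodes gp38, a surface protein of lymphatic endothelium that the sort selected against, had means of 5.11 in the knockout and 5.42 in the control. Prox1, the defining factor of lymphatic endothelium, had 4.42 in the knockout and 4.37 in the control, close to background in both groups. The part of any lymphatic cells left after this gate was not tested. Of 6 glial markers 4 (S100b, Sox10, Gfap and Erbb3) were above background, with list means of 4.31 to 4.76 in the knockout and 4.51 to 4.95 in the control, and limma called 0, with 0 at an unadjusted p under 0.05. Of 12 leukocyte markers 11 were above background, with list means of 5.65 to 6.07 in the knockout and 6.00 to 6.27 in the control. By limma 0 were called, and 3 (Gzma, Cd3e and Cd3g), all lower in the knockout, had an unadjusted p under 0.05. Cd3g lay at or under the background on every knockout array, so that its difference is a bound. Of the 11 changes, 5 were positive and 6 negative. Among the leukocyte markers the changes of Ighm, Cd68 and Lyz2 were 0.53, 0.054 and 0.31, and those of Gzma and Cd3e were -1.87 and -0.52.

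**Figure D4:**
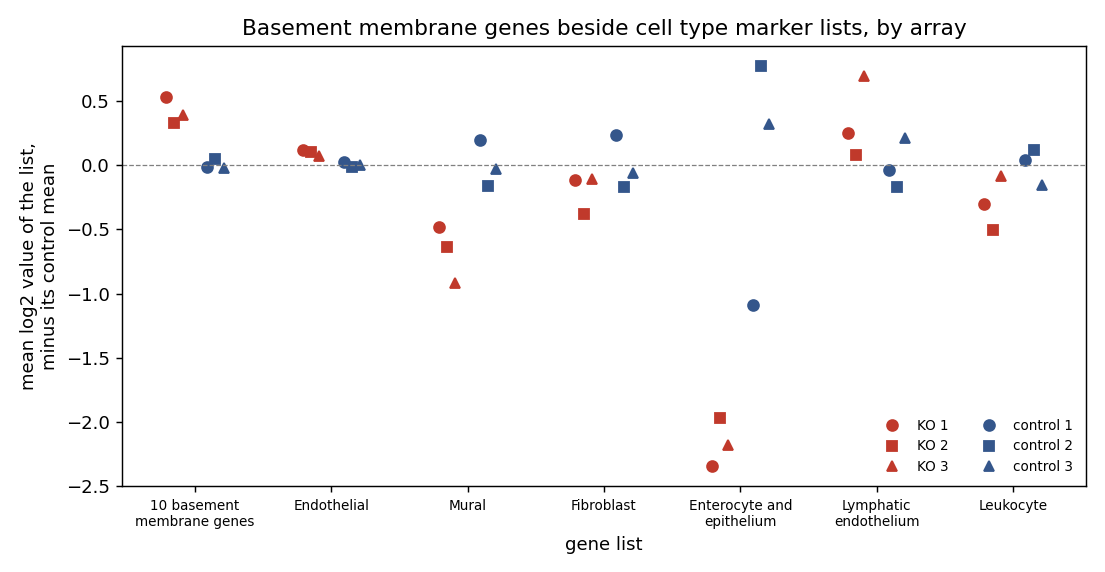
Mean log2 value of each gene list minus its control mean, per array, for the 10 basement membrane genes and 6 cell type marker lists, with knockout arrays (red) left of control arrays (blue). The 10 genes lie at 0.33 to 0.53 on the knockout arrays, the endothelial list at 0.068 to 0.11, the mural list at -0.92 to -0.48 and the epithelial list at -2.34 to -1.97 (-2.28 to -1.92 with values under the background raised to it).

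The direction of the change was the same in all 18 other settings for each of the 10 genes, but the calls were not equally firm. In many settings this sign was fixed beforehand. The background filters, the trend and robust variance settings, the replicate block and the test of every probe set left the estimates unchanged. Leaving out arrays cannot turn the sign of a gene whose groups do not overlap, as in 9 of the 10. Nid1 passed in 18 of 18 settings, with changes from 0.78 to 1.03, Lamb1 in 15, Nid2 in 13, Col4a1 in 11 and Col4a2 in 7. Lama4, Lama5, Lamb2, Lamc1 and Hspg2 passed in none. Without a mean-variance trend in the variance model, 139 of all genes passed, and Nid1 was the only one of the 10 among them.

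**Figure D5:**
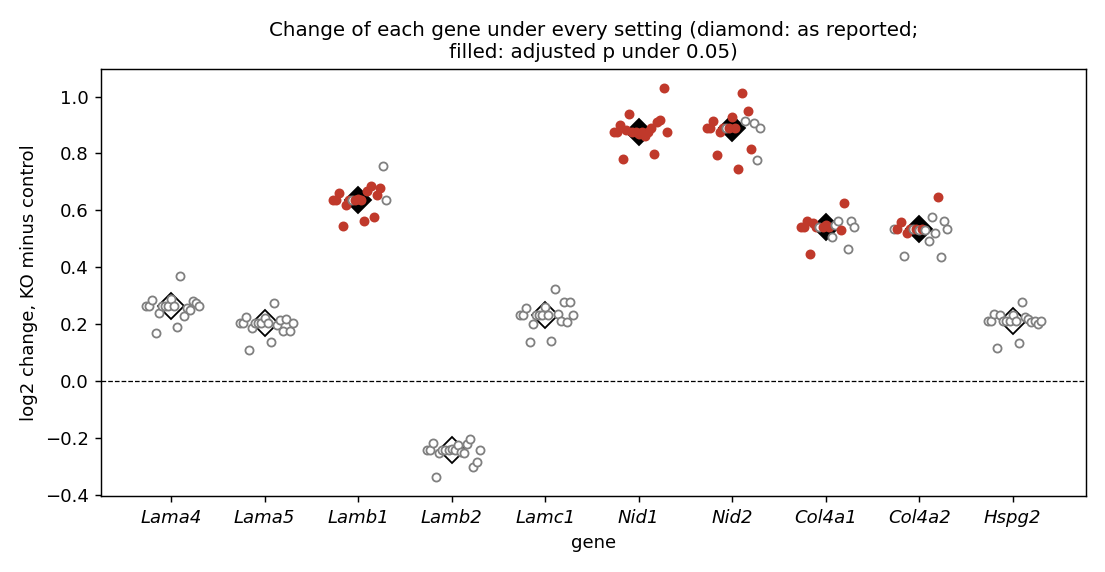
Log2 change (KO minus control) of each gene as reported (diamond) and under each of 18 other settings (circles), filled where the adjusted p is under 0.05. All circles of Nid1 are filled, at 0.78 to 1.03, while 7 of 18 are filled for Col4a2 and none for Lama4, Lama5, Lamb2, Lamc1 or Hspg2.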

How the data were processed

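The authors deposited log2 values per probe set, made by RMA in the oligo package per the submitters' processing notes (background correction, quantile normalization across arrays and a summary over probes). Their versions are not given in the sources used here. Per the labels' protocols, RNA was amplified before labelling, which can change the relative levels of genes. Probe sets were named by the platform annotation, which gave 1 gene symbol to 23521 of 41345; the 1814 with several symbols and the 16010 without any were not tested as genes. Where a gene had more than 1 probe set, that with the highest 6-array mean stood for it. A gene was tested if this mean lay over a background of 4.12 (log2), the 90th percentile among 1432 chemosensory receptor genes (olfactory, vomeronasal, taste), as 15287 of 22180 did. Groups came from the sample titles. The fit was limma's (version 3.58.1, R 4.3.3; lmFit, then eBayes allowing the variance to follow the mean), two-sided, with p-values adjusted by Benjamini-Hochberg over the 15287 genes and called under 0.05. Changes are knockout minus control, and ± is the standard error of this fit unless SD is given. For pairs, it comes from the spread of arrays within groups. Simulated arrays with known changes were used to test the procedure. The test required recovery only of changes larger than those of the basement membrane genes, and recovery at their size is not reported here. With 3 arrays a group, the number of arrays limits the precision. Figures were drawn with matplotlib 3.10.9.

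The members, lists and tests were chosen with earlier results of these data known. The named genes are the 10 members, the called genes of each pathway list (at most 6, and always the 2 with the smallest p), from each cell type list the 3 markers of highest signal (a rule of choice, not a ranking of levels) and the 2 of smallest p, and the 3 genes most correlated with each called member. Other genes named (Col4a3 to Col4a6, Sparc, Col8a1, Timp4, Epcam, Cdh17, Lum, Esam, Robo4, Prox1 and Cd3g) were chosen after their values were seen.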

Additional observations from a re-analysis of the deposited data

How the results depend on the processing

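The direction of change of the 10 genes was the same in each of 18 settings, many of which could not alter it. The number called varied from 1 to 5, where 5 were reported, and the cause of the losses was not tested. The number was 1 without the variance trend, 1 with control 1 as the lone control and 1 when every probe set was tested (26 of 25691 called). The last setting was chosen after seeing the data, and Nid1 was the gene each time. Leaving out 1 array gave 2 to 5 of the 10 genes and 91 to 379 of all genes (399 reported). All genes called numbered 139 without the variance trend, 52 with the lone control and 612 after scaling to endothelial markers, where 19.1% of calls were higher in the knockout, against 43.4% as reported. Among single genes, calls were lost as follows. Lamb1 lost its call without the variance trend (adjusted p = 0.061), with the lone control (0.0802) and with every probe set tested (0.0742). Nid2 lost it there too (0.0521, 0.198 and 0.085), and so did Col4a1 (0.0833, 0.0785 and 0.0864). Col4a2 also lost it without the background filter (adjusted p = 0.0675), after endothelial scaling (0.0778) and with array weights (0.0509).

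Under the stricter background filter (6.16), Lamc3 was not tested, with means of 5.12 in the knockout and 6.11 in the control. That filter called 1 other laminin or collagen IV chain, 2 other components, 1 folding gene and 4 receptor genes. Without the variance trend these were 1, 0, 0 and 1, and with the lone control 0, 0, 0 and 0, with 2 protease genes. Subtracting array medians, robust variance and array weights each called 1 folding gene. With 1 array left out, the counts were 1 to 2 other chains, 0 to 1 components, 0 to 2 receptor genes and 3 to 6 protease genes. The Nid1 minus Nid2 difference, -0.015 as reported, was 0.0061 with repeated quantile normalization, 0.049 with the mean of probe sets, 0.25 with the lone control and -0.15 to 0.12 with 1 array left out. Col4a1 minus Col4a2 was -0.0017 with the lone control and -0.025 to 0.056 with 1 array left out. The Lamb1 minus Lamb2 difference stayed between 0.79 and 0.98 with 1 array left out. With the replicate number as a block, 5 of the 10 genes and 394 of all genes were called. Over all genes, deviations of same-numbered arrays from their group means correlated at -0.020, -0.0078 and 0.039, against -0.032 to 0.034 for differently numbered arrays. Whether same-numbered arrays were handled together was not tested, and the labels do not say.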

Other observations

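The genes whose values over the 6 arrays ran most like those of the called basement membrane genes are given as a description, with no test. The points are 6 arrays in 2 groups, so that a gene that differs between the groups correlates for that reason alone. Closest to Nid1 were Flt4, a VEGF receptor of sprouting and lymphatic endothelium (r = 0.9997), Rbm22, a splicing factor (r = 0.994), and Col13a1, a transmembrane collagen (r = 0.992). Of these, Flt4 and Col13a1 rose in the knockout (adjusted p = 0.0104 and 0.00374 by limma), by 0.65 and 0.89 on the log2 scale. Closest to Lamb1 were Slc12a7, Rtca and Ch25h (r from 0.989 to 0.994), closest to Nid2 were Tbc1d10b, Ywhah and Arap3 (r from 0.988 to 0.993), and closest to Col4a1 were Ptpre, Nme1 and Rab5c (r from 0.991 to 0.995). Closest to Col4a2 were F2rl3, a thrombin receptor (r = 0.995), Plvap, the protein of the fenestral diaphragm (r = 0.993), and Ankrd39 (r = 0.992). Between Col4a1 and Col4a2 themselves r was 0.981.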
